A study of Mus musculus with 35 samples.

Results

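The genes described are 9 enzymes of foreign-compound and lipid metabolism in mouse lung: the flavin monooxygenases Fmo1, Fmo2 and Fmo5, and the carboxylesterases Ces1d, Ces1f, Ces1g, Ces2a, Ces2e and Ces2g. They were given as a list, and all 9 were found among the 17097 genes measured, with no filter on dim values. Every probe set annotated with exactly 1 of these symbols was taken, and the brightest by its mean over all arrays stood for the gene. Fmo2 had 4 such probe sets, Fmo5 had 3, and each of the other 7 genes had 1.

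Whole lung was taken from adult CD-1 males, outbred mice without genetic change, after they had inhaled air alone or air with styrene, a volatile industrial solvent, at 1, 5, 10, 20, 40 or 120 ppm. There were 7 groups with 5 mice in each, and 35 arrays with 1 mouse on each. Mice were killed on the morning after exposure ended, and the labels disagree on its length: the protocol and titles give a single 6 h exposure and 1 day, whereas the sample characteristics give 5 days. Whole lung mixes all cell types of the organ, so fewer cells of a type and less RNA per cell cannot be told apart in any value here.

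Flavin monooxygenases sit in the endoplasmic reticulum and use NADPH and molecular oxygen to oxidise nitrogen and sulphur atoms of drugs and other foreign compounds. FMO2 is the form best known from mammalian lung, FMO1 is found in rodent liver, kidney and lung, and FMO5 differs from the other forms in oxidising ketones to esters. Carboxylesterases are serine hydrolases of the same compartment that split esters and amides, both of drugs and of stored lipids. In the mouse they form clusters of closely related genes, with Ces1d, also known as triacylglycerol hydrolase, abundant in lung and fat, and Ces2 enzymes known mainly from gut and liver.

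In the GRCm38.p6 assembly Fmo1 and Fmo2 are next to each other on chromosome 1, between Fmo4 and Fmo6, while Fmo5 lies on chromosome 3. All 6 carboxylesterases lie on chromosome 8, where Ces1f is the neighbour of Ces1g and Ces1d lies between Ces1c and Ces1e. RefSeq start-site windows of 250 bases before to 50 after the start were on hand for 6 of the 9 genes. The window of Ces1g, the gene with the largest rise at 120 ppm, and the second of 2 start-site windows of Fmo2 are printed here, 5' to 3' in the direction of the gene, at chr8:93337160-93337459 on the minus strand and chr1:162898444-162898743 on the minus strand. Capitals mark the motifs found on either strand among the TATA box (TATAAA), the CCAAT box, the nuclear receptor core AGGTCA, the dioxin response core GCGTG and the antioxidant response core TGACNNNGC.
Ces1g: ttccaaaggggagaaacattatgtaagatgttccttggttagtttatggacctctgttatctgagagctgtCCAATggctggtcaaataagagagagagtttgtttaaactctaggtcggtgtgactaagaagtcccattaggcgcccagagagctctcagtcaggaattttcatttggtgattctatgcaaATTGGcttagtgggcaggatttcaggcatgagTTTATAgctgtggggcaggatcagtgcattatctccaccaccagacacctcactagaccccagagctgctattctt
Fmo2: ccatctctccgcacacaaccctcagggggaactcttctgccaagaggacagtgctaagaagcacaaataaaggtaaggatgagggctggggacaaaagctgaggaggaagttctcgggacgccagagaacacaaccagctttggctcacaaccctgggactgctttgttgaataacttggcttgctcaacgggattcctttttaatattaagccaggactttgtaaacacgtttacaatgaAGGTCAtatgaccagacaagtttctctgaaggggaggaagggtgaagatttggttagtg
The Ces1g window held TATAAA at -26 to -21 from the start site on the strand opposite to the gene, so that TTTATA is printed. It held CCAAT at -179 to -175 on the strand of the gene and at -58 to -54 on the opposite strand. The second Fmo2 window held AGGTCA, a core of nuclear receptor sites, at -9 to -4, while the first window of Fmo2 held none of the 5 motifs. Ces2a, which was not called from 5 ppm up, also held AGGTCA, at -226 to -221. Among 32851 mouse windows of the same length, 13.6% held TATAAA, 37.4% CCAAT, 16.3% AGGTCA, 32.4% GCGTG and 12.4% TGACNNNGC. Neither of the dioxin and antioxidant response cores was among the letters of any of the 7 windows of these genes.

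The windows of Ces2a, Ces2e and Ces2g are shown together because these genes of 1 cluster shared 2 words in the same order. The stretches lie on the plus strand at chr8:104733928-104733995, chr8:104926175-104926241 and chr8:104961596-104961709. The words were picked as the longest that these same windows share, down to 9 letters, so their rarity elsewhere is no separate evidence. Capitals mark ACTTTGCCC, found in 0.262% of all windows on either strand, and CAAATTCCTGC, found in 0.0244%.
Ces2a: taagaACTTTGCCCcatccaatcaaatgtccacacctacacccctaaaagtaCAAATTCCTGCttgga
Ces2e: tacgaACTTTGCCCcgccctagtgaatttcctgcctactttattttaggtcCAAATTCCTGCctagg
Ces2g: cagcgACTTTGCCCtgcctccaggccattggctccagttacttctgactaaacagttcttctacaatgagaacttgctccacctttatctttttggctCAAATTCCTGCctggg
The 11-letter word began at -23, -34 and -24 from the start site of Ces2a, Ces2e and Ces2g. A match of letters is a description of these windows and not a site of binding.

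Markers of lung were bright on every array. Sftpc of alveolar type 2 cells lay between 13.69 and 13.82 log2, and Scgb1a1 of club cells between 13.67 and 13.93 log2. Array medians lay between 4.35 and 4.56 log2. Adipoq of fat cells ranged from 3.19 to 11.27 log2 at 10 ppm and from 4.12 to 8.75 in air. Its change at 120 ppm did not pass (0.79 ± 1.23, adjusted p = 0.57). The arrays also differed as wholes: on the largest axis of the spread between mice of a group, which carried 17.4% of that spread, air arrays scored 0.113 to 0.297 and 1 ppm arrays 0.173 to 0.305, whereas arrays from 5 ppm up scored -0.26 to 0.105. No label names a batch, and a batch running along with exposure cannot be told apart from it. Markers of liver cells, with 6 of 7 measured, averaged over 7 log2 on 5 arrays, namely mice 1 (8.60 log2) and 3 (8.03) at 1 ppm, mice 1 (8.04) and 3 (7.77) at 20 ppm, and mouse 1 (9.57) at 40 ppm. Their group medians were 4.94 log2 in air, 4.77 at 1 ppm, 3.90 at 5 ppm, 3.65 at 10 ppm, 6.77 at 20 ppm, 5.01 at 40 ppm and 3.44 at 120 ppm. Without these 5 arrays the calls of Ces1f at 20 ppm and of Fmo5 at 40 ppm were lost, and the other calls of members at 1, 20 and 40 ppm remained.

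Against air, 5 of the 9 genes rose at every concentration from 5 ppm up: Fmo1, Fmo2, Ces1d, Ces1f and Ces1g. At 120 ppm Ces1g was 5.01-fold, Fmo2 2.71-fold, Fmo1 2.16-fold, Ces1f 1.86-fold and Ces1d 1.60-fold the level in air. No Ces2 gene rose from 5 ppm up, and Ces2e and Ces2g fell at 10 and at 120 ppm. Fmo5 fell at 5 ppm and rose at 40 ppm. At 1 ppm only Ces2a passed the test, and it was higher. After quantile normalization Ces1f was no longer called at 40 ppm (0.76, adjusted p = 0.0664) or at 120 ppm, and Fmo5 no longer at 40 ppm.

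Calls were made at an adjusted p under 0.05 over all genes with limma, and the background of calls was high from 5 ppm up. At 5 ppm 5 members were called higher and 2 lower, beside 77.0% of all genes. At 10 ppm the count was again 5 higher and 2 lower (66.4% of all genes called), at 20 ppm 5 higher and 0 lower (63.6%), at 40 ppm 6 higher and 0 lower (64.8%), and at 120 ppm 5 higher and 2 lower (68.9%). At 1 ppm 1 member was called higher, beside 2.46% of all genes. The F test over the 7 groups called all 9 members and 82.4% of all genes. The median log2 change of the members at 120 ppm was 0.68, against -0.15 over all genes, of which 29.8% were called higher and 39.1% lower. At 5 ppm the medians were 0.42 for the members and -0.23 over all genes. With dim genes left out, among them Ces2a and Ces2e, the medians over the remaining 11398 genes were 0.056 at 120 ppm and -0.099 at 5 ppm. All comparisons with air share the same 5 air mice, and the p-values measure only the spread between mice.

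**Figure D1:**
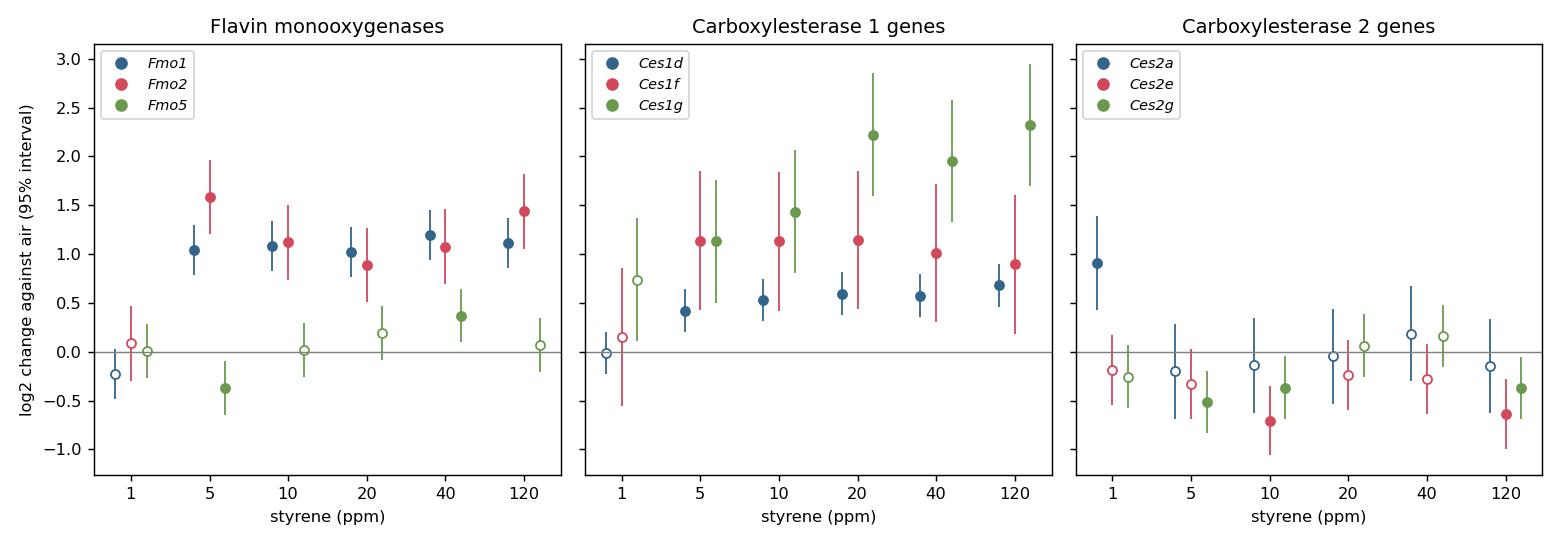
Log2 change of each gene against air (vertical axis, estimate with its 95% interval) at each styrene concentration in ppm (horizontal axis, not to scale), with filled points called and open points not called at an adjusted p under 0.05. Ces1g stands highest among the genes drawn from 10 to 120 ppm, reaching 2.33 log2 at 120 ppm, while the 3 Ces2 genes lie near or below 0 from 5 ppm up.

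Fmo1, which oxidises nitrogen and sulphur atoms of drugs, separated the air and 1 ppm mice from all others. Its log2 values were 9.37, 10.21, 10.15, 10.02 and 10.48 in the 5 air mice, and 9.97, 9.62, 9.69, 9.74 and 10.06 at 1 ppm. They were 11.05, 11.17, 11.08, 11.14 and 10.99 at 5 ppm and, at the other end, 11.16, 11.21, 10.89, 11.35 and 11.17 at 120 ppm. Every mouse from 5 ppm up lay above every air mouse and every 1 ppm mouse. The arrays as wholes split the same way on the axis described above, and the other genes that do so were not counted. The log2 change was 1.04 ± 0.125 (SE, n = 5 mice) at 5 ppm (adjusted p = 5.43e-09), 1.20 at 40 ppm and 1.11 ± 0.125 at 120 ppm (adjusted p = 2.14e-09). At 1 ppm it was -0.23 ± 0.125, which did not pass (adjusted p = 0.395) but did without air mouse 1 (-0.40, adjusted p = 0.0202). The 5 groups from 5 to 120 ppm had means between 11.07 and 11.24 log2, and each overlapped its neighbour in that order. A trend over log2 of the concentration from 5 to 120 ppm gave 0.021 log2 per doubling of the concentration, with a 95% interval from -0.013 to 0.055.

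Fmo2, the form best known from lung, rose farthest at 5 ppm. Its brightest probe set read 9.25, 9.09, 9.25, 9.24 and 9.87 log2 in air, and 9.33, 9.08, 9.15, 9.71 and 9.84 at 1 ppm. It read 11.49, 11.14, 10.58, 10.58 and 10.79 at 5 ppm, then 10.20, 10.64, 10.82, 10.12 and 10.50 at 10 ppm. The 20 ppm mice had 10.42, 10.30, 9.59, 10.27 and 10.55, those at 40 ppm 10.39, 10.64, 10.24, 10.49 and 10.30, and those at 120 ppm 10.94, 10.47, 10.63, 11.08 and 10.75. The groups at 5, 10, 40 and 120 ppm did not overlap air, whereas mouse 3 at 20 ppm, with 9.59, lay below the highest air mouse. The log2 change was 1.58 ± 0.188 at 5 ppm (adjusted p = 4.15e-09), 1.12 at 10 ppm, 0.89 ± 0.188 at 20 ppm (adjusted p = 0.000118), 1.07 at 40 ppm and 1.44 ± 0.188 at 120 ppm (adjusted p = 4.14e-08). With mouse 3 at 20 ppm left out, whose array was high in liver cell markers (7.77 log2), the change at 20 ppm was 1.05. From 5 to 120 ppm there was no trend that passed: the slope was -0.016 log2 per doubling, with an interval from -0.111 to 0.079.

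**Figure D2:**
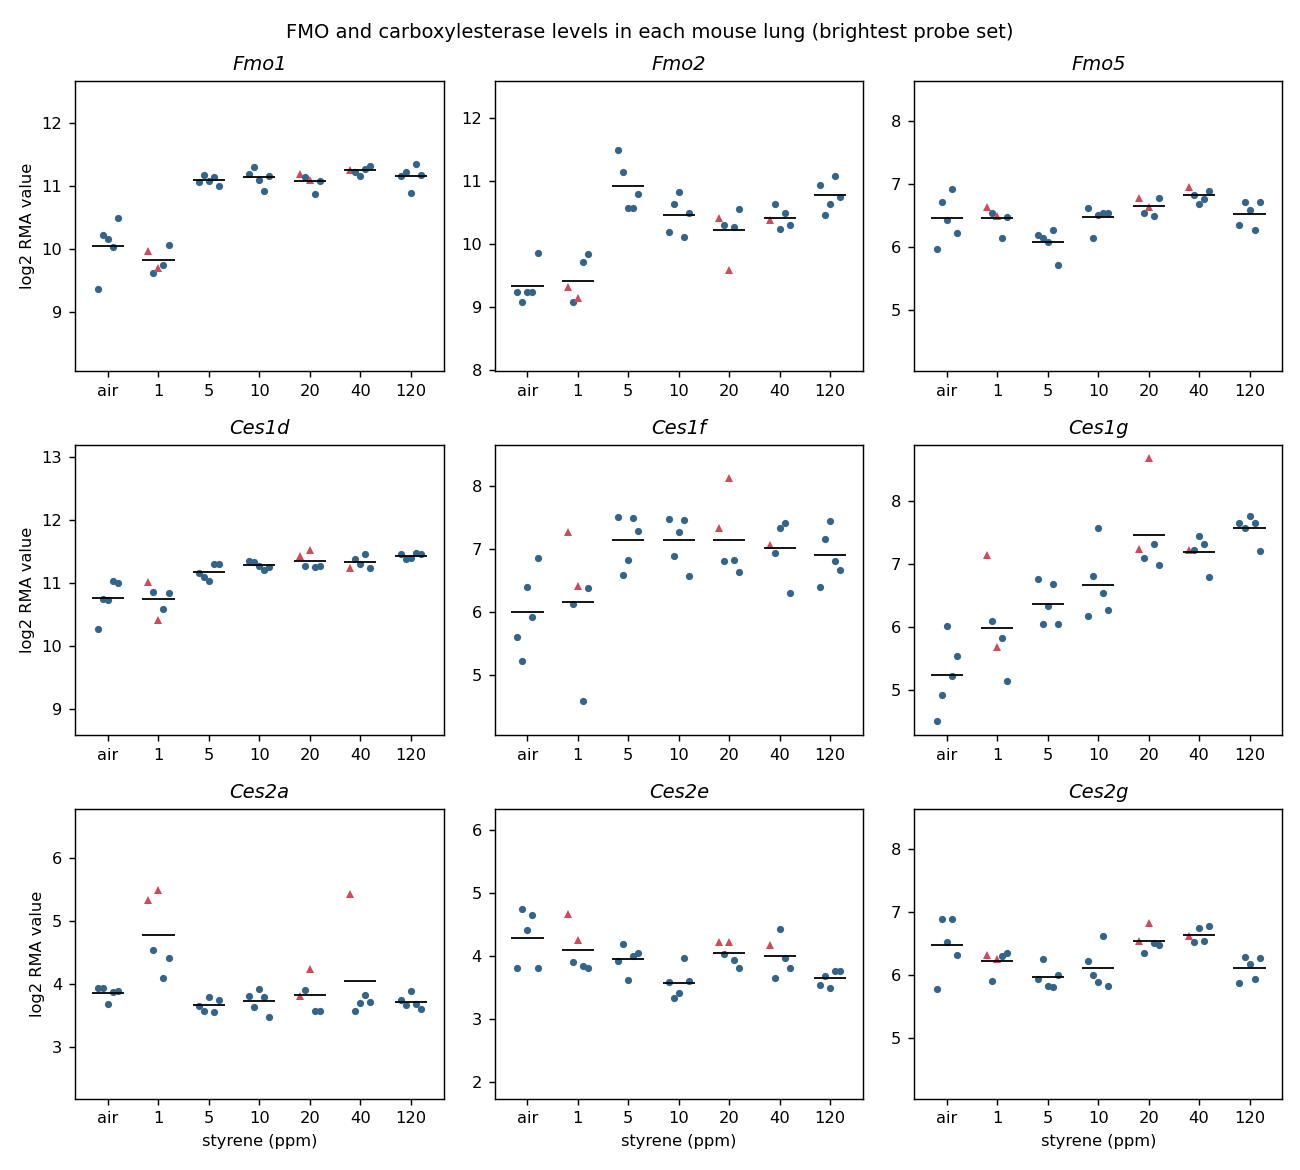
Log2 RMA value of the brightest probe set of each gene (vertical axes, of equal span) in each mouse by styrene concentration in ppm (horizontal axes). Bars are group means of 5 mice, and red triangles are the 5 arrays with a mean liver cell marker value over 7 log2. For Fmo1 every mouse from 5 ppm up lies above the air and 1 ppm mice, the highest of which is at 10.48 log2.

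The other probe sets of Fmo2 moved the same way by different amounts. At 120 ppm the next brightest pair rose by 2.24 ± 0.214 and 2.08 ± 0.210 log2, more than the 1.44 of the brightest. At 5 ppm the second brightest rose by 2.40 ± 0.214, more than any change of the Ces1g probe set against air. The dimmest, at a mean of 3.87 log2 and dim, rose by 0.50 ± 0.156 (adjusted p = 0.00581, adjusted over all probe sets). At 5 ppm the second brightest read 11.09, 11.02, 11.00, 10.96 and 11.03, and in air it read 8.07, 8.55, 8.63, 8.58 and 9.27, with no overlap. The brightest probe set of Fmo2 carries the platform's suffix for probe sets that can match transcripts of related genes.

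Fmo5, the form that oxidises ketones, changed little and not in 1 direction. Its brightest probe set, which by its suffix can match related genes, read 5.98, 6.72, 6.44, 6.93 and 6.23 log2 in air. It read 6.20, 6.15, 6.08, 6.27 and 5.71 at 5 ppm, and 6.96, 6.83, 6.69, 6.77 and 6.89 at 40 ppm. Both ranges overlapped that of air, which was the widest of the 7 groups with an SD of 0.378. The change was -0.37 ± 0.135 at 5 ppm (adjusted p = 0.0132) and 0.37 ± 0.135 at 40 ppm (adjusted p = 0.0173), and 0.07 ± 0.135 at 120 ppm (adjusted p = 0.643), where quantile normalization gave -0.19. The call at 5 ppm was lost without air mouse 4 or 5 ppm mouse 5, and the call at 40 ppm without air mouse 1 or air mouse 5 and after quantile normalization (0.14) or median centring (0.32, adjusted p = 0.0502). Without the arrays high in liver cell markers it was 0.34 and did not pass (adjusted p = 0.0517). The second brightest probe set, at a mean of 3.87 log2, disagreed with the brightest: it was called higher at 10, 20, 40 and 120 ppm, by 0.47, 0.58, 0.42 and 0.37, and its change at 5 ppm was -0.066 ± 0.117 (adjusted p = 0.613).

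**Figure D3:**
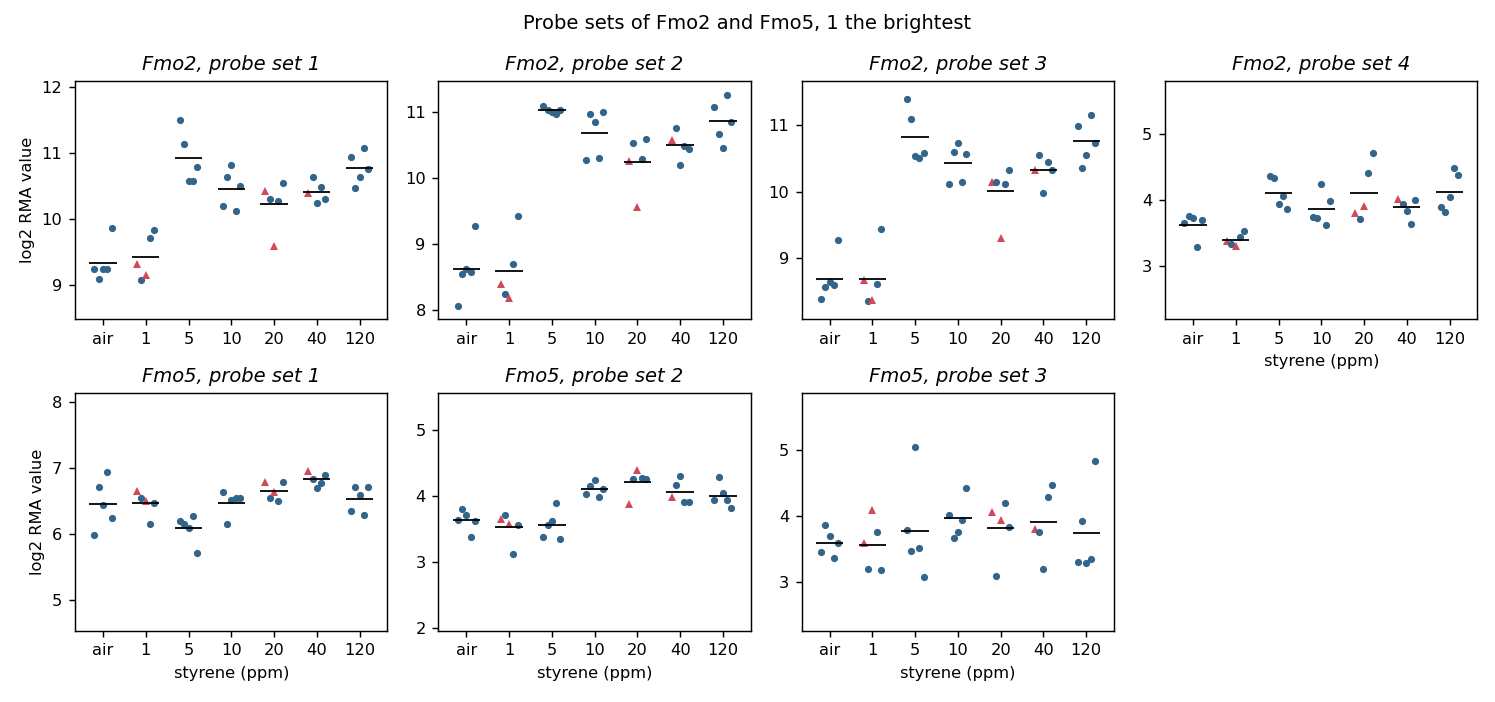
Log2 RMA values of the 4 probe sets of Fmo2 and the 3 of Fmo5 (vertical axes, of equal span), from the brightest (1) to the dimmest, in each mouse by styrene concentration in ppm. Bars are group means of 5 mice, and red triangles are the 5 arrays high in liver cell markers. The 3 bright probe sets of Fmo2 separate air and 1 ppm from 5 ppm, and the second of Fmo5 changes by 0.58 log2 at 20 ppm.

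Ces1d, the triacylglycerol hydrolase, changed by the smallest amount of the 5 that rose. Its log2 values were 10.27, 10.75, 10.74, 11.04 and 11.00 in air and 11.02, 10.86, 10.42, 10.60 and 10.84 at 1 ppm. They were 11.17, 11.10, 11.03, 11.30 and 11.31 at 5 ppm, and 11.46, 11.39, 11.40, 11.48 and 11.47 at 120 ppm. Of the groups from 5 ppm up, only 5 ppm overlapped air, since its lowest mouse was at 11.03 and the highest air mouse at 11.04. The change was 0.42 ± 0.107 at 5 ppm (adjusted p = 0.000753), 0.53 at 10 ppm, 0.59 at 20 ppm, 0.57 at 40 ppm and 0.68 ± 0.107 at 120 ppm (adjusted p = 1.29e-06). The 5 mice at 120 ppm had an SD of 0.0414, the smallest of the 7 groups for this gene, against 0.306 in air.

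Ces1f, an esterase of the same cluster that also acts on stored lipid, varied most between mice, with the largest SE of the 9 genes (0.349). It read 5.62, 5.23, 6.41, 5.92 and 6.87 log2 in air, and 7.28, 6.13, 6.41, 4.59 and 6.38 at 1 ppm. At 5 ppm it read 7.52, 6.59, 6.83, 7.50 and 7.29, and at 120 ppm 6.41, 7.17, 7.45, 6.81 and 6.67. All 5 groups from 5 ppm up overlapped air, although every mouse in them lay above the air mean of 6.01. The change was 1.14 ± 0.349 at 5 ppm (adjusted p = 0.00414), 1.13 at 10 ppm, 1.14 at 20 ppm, 1.01 at 40 ppm and 0.89 ± 0.349 at 120 ppm (adjusted p = 0.024). The call at 120 ppm was lost without air mouse 1, air mouse 2, 120 ppm mouse 2 or 120 ppm mouse 3, and also after quantile normalization (0.63), and with 1 ppm in place of air (0.74, adjusted p = 0.0556). Without the arrays high in liver cell markers the change at 20 ppm was 0.76 (adjusted p = 0.0618), and its probe set can match related genes.

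Ces1g, a hydrolase best known from mouse liver lipid metabolism, had the largest change of the 9 at 120 ppm by brightest probe set. It read 4.50, 4.93, 6.02, 5.23 and 5.54 log2 in air, then 7.15, 6.10, 5.68, 5.82 and 5.15 at 1 ppm. The 5 ppm mice had 6.76, 6.04, 6.33, 6.68 and 6.05, and the 10 ppm mice 6.18, 6.81, 7.58, 6.54 and 6.28. From 5 ppm up every mouse lay above every air mouse, although the lowest at 5 ppm (6.04) and the highest in air (6.02) were close.

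Further up, the Ces1g values were 7.23, 7.10, 8.68, 7.31 and 6.98 at 20 ppm, 7.22, 7.23, 7.44, 7.31 and 6.79 at 40 ppm, and 7.66, 7.58, 7.76, 7.65 and 7.20 at 120 ppm. No mouse at 120 ppm overlapped the 5 ppm group, whose highest value was 6.76. The log2 change against air was 1.13 ± 0.309 at 5 ppm (adjusted p = 0.00147), 1.43 ± 0.309 at 10 ppm, 2.22 ± 0.309 at 20 ppm, 1.95 ± 0.309 at 40 ppm and 2.33 ± 0.309 at 120 ppm (adjusted p = 5.48e-08). At 1 ppm it was 0.74 ± 0.309 and did not pass (adjusted p = 0.222), with 4 of 5 mice above the air mean.
With 1 ppm in place of air the change was 0.39 at 5 ppm (adjusted p = 0.238) and 1.59 at 120 ppm. Without the arrays high in liver cell markers the change at 20 ppm was 1.89 (adjusted p = 1.54e-06), and at 1 ppm 0.45.

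Within the concentrations from 5 to 120 ppm, a trend over log2 of the concentration was fitted to the 25 exposed mice, which leaves the air mice out. No member passed, where 0.0760% of all genes (13) were called. At an unadjusted p under 0.05 there were 3 members and 4059 genes. Ces1g had a slope of 0.25 ± 0.0568 log2 per doubling (adjusted p = 0.067), Ces1d 0.050 ± 0.0135 (adjusted p = 0.0807) and Fmo5 0.099 ± 0.0312 (adjusted p = 0.103). Ces1g passed without the 3 arrays of these groups that were high in liver cell markers (adjusted p = 0.00584), with the liver cell markers as a covariate (adjusted p = 0.035), and over the rank of the concentration (adjusted p = 0.031). It also passed with the mouse number as a block, and without 20 ppm mouse 3 (adjusted p = 0.00643), 120 ppm mouse 1 or 120 ppm mouse 4. Ces1d passed without the same 3 arrays (adjusted p = 0.0404) or without 120 ppm mouse 1, and Fmo5 without 120 ppm mouse 1 or mouse 4. The slope of Ces1g lay between 0.24 and 0.28 log2 per doubling over the 25 fits that left out 1 mouse each. Only 3 of these 25 fits passed, and the adjusted p reached 0.155. Over all 35 mice and log2(ppm + 1), 5 members rose and 1 fell, against 72.6% of all genes called, and Ces1g again had the steepest slope of the 9 (0.33 ± 0.0392, adjusted p = 6.7e-08). On a linear scale of concentration all 6 calls were lost, with an adjusted p of 0.0745 for Ces1g.

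The comparison of 120 with 40 ppm asks whether the highest concentration added to the response. No member was called with limma, where 0.0175% of all genes (3) were. At an unadjusted p under 0.05 there were 2 members and 1625 genes. Ces1g was 0.37 ± 0.309 log2 higher at 120 ppm, with an interval from -0.257 to 0.999, and all 5 mice at 120 ppm lay above the 40 ppm mean. Fmo2 was 0.36 ± 0.188 higher (adjusted p = 0.545). Ces2g, a lipase known from mouse intestine and liver, read 5.87, 6.29, 6.17, 5.94 and 6.26 at 120 ppm and 6.61, 6.52, 6.74, 6.54 and 6.77 at 40 ppm. These 2 groups did not overlap, and the change of -0.53 ± 0.157 did not pass after adjustment (adjusted p = 0.252).

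Ces2a, a drug and lipid hydrolase of liver and gut, was the 1 member called at 1 ppm. It read 5.34, 4.54, 5.50, 4.10 and 4.43 log2 at 1 ppm, and 3.95, 3.94, 3.69, 3.89 and 3.89 in air. The groups did not overlap, and the change was 0.91 ± 0.238 (adjusted p = 0.0352). The 2 highest mice at 1 ppm, 1 and 3, were those whose arrays were high in liver cell markers. Without these and the other 3 such arrays the change was 0.48 and still passed (adjusted p = 0.0132), and with the liver cell markers as a covariate it was 0.81 (adjusted p = 0.00631). The call was lost without any 1 of air mice 2, 3 and 5 or 1 ppm mice 1, 2 and 3, with changes from 0.73 to 0.97 and adjusted p between 0.054 and 0.0994. The probe set was dim, with a mean of 3.95 log2, below the median of every array, and with dim genes left out Ces2a is not tested and no member was called at 1 ppm. The call was also lost without moderation of the variances (adjusted p = 0.0513), with array weights (adjusted p = 0.193) and with the air and 1 ppm mice alone in the fit (adjusted p = 0.486).

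From 5 ppm up Ces2a did not pass at any concentration, with changes from -0.20 to 0.18. At 40 ppm its values were 5.43, 3.59, 3.70, 3.83 and 3.73, so that mouse 1, the array with the highest liver cell marker mean (9.57), stood alone. Ces3b, a liver esterase of the same family, read 6.98 on that array, 5.50 and 5.46 in 1 ppm mice 1 and 3, and 4.46 and 5.14 in 20 ppm mice 1 and 3, and at most 4.12 on the other 30. Ces1c, a secreted carboxylesterase named here after its values had been seen, was also highest in 40 ppm mouse 1, at 6.03. Across 35 arrays the deviations of Ces2a from its group means had r = 0.913 with those of Ces3b and 0.922 with those of Ambp. Alb, the defining liver marker, reached at most 10.45 log2 at 40 ppm and 6.19 in air. The part of liver RNA in these values was not tested beyond the fits without those arrays and with the markers as a covariate.

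**Figure D4:**
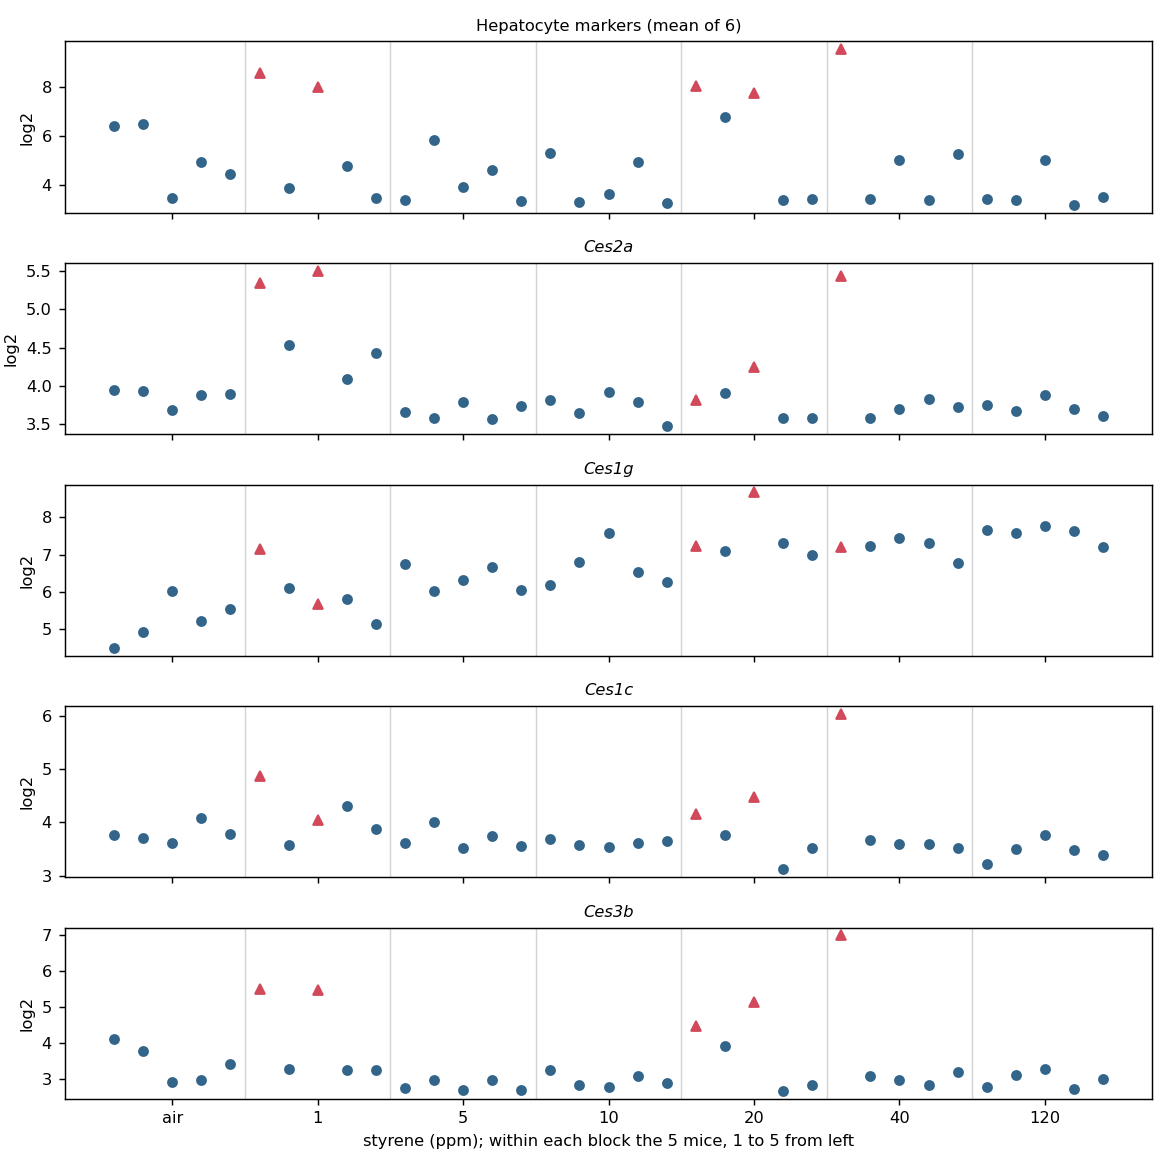
Log2 values in all 35 mice, 7 groups of 5 from air to 120 ppm with mice 1 to 5 from left in each, of the mean of 6 hepatocyte markers and of Ces2a, Ces1g, Ces1c and Ces3b. Red triangles mark the 5 arrays with a hepatocyte marker mean over 7 log2. The highest hepatocyte mean (9.57) and the highest Ces1c and Ces3b values fall on 40 ppm mouse 1, and the Ces1g values at 120 ppm, from 7.20 to 7.76, hold no triangle.

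Ces2e and Ces2g, hydrolases best known from the intestine, fell at some concentrations. The Ces2e probe set was dim, with a mean of 3.94 log2, below the median of every array, and it is not tested where dim genes are left out. Ces2e read 3.54, 3.68, 3.50, 3.75 and 3.77 log2 at 120 ppm, and 3.80, 4.74, 4.41, 4.65 and 3.81 in air. The groups did not overlap, by a small margin, and the change was -0.64 ± 0.175 (adjusted p = 0.00188). At 10 ppm it was -0.71 ± 0.175 (adjusted p = 0.000709), where the highest mouse, at 3.96, overlapped air. At 5, 20 and 40 ppm its changes of -0.33, -0.24 and -0.28 did not pass, although that at 5 ppm did after median centring (-0.43, adjusted p = 0.0255).

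Ces2g read 6.23, 6.00, 5.88, 6.62 and 5.83 log2 at 10 ppm, and 5.79, 6.88, 6.52, 6.89 and 6.31 in air. Its changes were -0.51 ± 0.157 at 5 ppm (adjusted p = 0.0041), -0.37 ± 0.157 at 10 ppm (adjusted p = 0.0398) and -0.37 ± 0.157 at 120 ppm (adjusted p = 0.036). Each of these groups overlapped air, whose SD of 0.460 was the widest of the 7 groups. At 20 and 40 ppm the changes were 0.06 and 0.16 and did not pass, and they were -0.17 and -0.071 after quantile normalization. The call at 10 ppm was lost without any 1 of air mice 2, 3 and 4 or 10 ppm mice 2, 3 and 5. The call at 120 ppm was lost without any 1 of air mice 2, 3 and 4 or 120 ppm mice 1 and 4, and with 1 ppm in place of air neither the change at 5 ppm (-0.26) nor that at 120 ppm (-0.12) passed. With the liver cell markers as a covariate the changes at 10 and 120 ppm were -0.34 (adjusted p = 0.064) and -0.33 (adjusted p = 0.0719).

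Between the neighbouring concentrations 5 and 10 ppm, 27.2% of all genes were called, and among the members Fmo5 alone, lower at 5 ppm by 0.39 on the log2 scale (± 0.135, adjusted p = 0.0303). Its values were 6.20, 6.15, 6.08, 6.27 and 5.71 at 5 ppm, and 6.63, 6.16, 6.51, 6.54 and 6.54 at 10 ppm. The groups overlapped through 10 ppm mouse 2 (6.16), and the call was lost without any 1 of 5 ppm mouse 5 and 10 ppm mice 1, 3, 4 and 5. Fmo2 was 0.46 ± 0.188 higher at 5 ppm, which did not pass (adjusted p = 0.0668), although all 5 mice lay above the 10 ppm mean. It passed without 5 ppm mouse 3, 5 ppm mouse 4 or 10 ppm mouse 3.

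No other carboxylesterase measured rose at any concentration. Of 14 others 7 were measured, and 5 fell and 0 rose at 5 ppm, beside 77.0% of all genes called (47.4% lower). At 120 ppm 4 were lower and 0 higher, beside 68.9% of all genes called (39.1% lower). Their median log2 change there was -0.33, beside -0.15 over all genes. After quantile normalization 4 fell at 5 ppm and 1, Ces2b, at 120 ppm. Ces2b, the neighbour of Ces2a, fell by 1.22 at 5 ppm (adjusted p = 1.93e-06) and by 0.95 at 120 ppm (adjusted p = 0.000105). Ces1e, which holds beta-glucuronidase in the endoplasmic reticulum and lies between Ces1d and Ces1f, was 0.54 lower on the log2 scale at 5 ppm (change -0.54 ± 0.169, adjusted p = 0.00517). It was also lower at 10 ppm (-0.52, adjusted p = 0.00773). At 120 ppm the change of Ces1e was -0.069 ± 0.169 (adjusted p = 0.722). After quantile normalization it was -0.87 at 5 ppm and -0.37 at 120 ppm (adjusted p = 0.0573). Ces4a, Ces5a and Ces2f, with changes of -0.43, -0.33 and -0.33 at 120 ppm, were the other 3 that fell, on dim probe sets with means of 2.93, 3.46 and 3.27 log2 at 120 ppm and 3.36, 3.79 and 3.60 in air. None of these 3 was called there after quantile normalization. Fmo4, 1 of 4 other flavin monooxygenases and the only 1 measured, rose at 20 ppm (0.51 ± 0.188, adjusted p = 0.0185). Its probe set was dim too, with means of 4.207 log2 at 20 ppm and 3.695 in air. Its change at 120 ppm was 0.36 ± 0.188 (adjusted p = 0.0925), which passed after quantile normalization (0.44, adjusted p = 0.0299), as did its change at 5 ppm (0.46, adjusted p = 0.0221).

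Among 14 other esterases and lipid hydrolases, all measured, 7 rose and 4 fell at 120 ppm, beside 29.8% higher and 39.1% lower over all genes. The smallest adjusted p belonged to Esd, esterase D (1.48 ± 0.0976 log2), the paraoxonases Pon2 (1.49 ± 0.103) and Pon3 (2.00 ± 0.156), and the lysosomal lipase Lipa (1.24 ± 0.114), all higher. At 1 ppm the change of Pon3 was -0.43 ± 0.156 (adjusted p = 0.147). Of 8 nuclear and xenobiotic receptors and their partners, all measured, 3 rose and 2 fell at 120 ppm, so that 5 of 8 were called beside 68.9% of all genes. Nfe2l2, the regulator of antioxidant genes, rose by 1.91 ± 0.138, Pparg by 1.73 ± 0.188 and the dioxin receptor Ahr by 1.17 ± 0.221, while Rxra, the partner of many nuclear receptors, fell (-1.16 ± 0.109). Nfe2l2 was already 2.05 ± 0.138 log2 higher at 5 ppm and was not called at 1 ppm (-0.0085, and 0.049 after quantile normalization).

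Markers of lung cell types moved with the same contrast. At 120 ppm against air 4 of 5 measured alveolar macrophage markers rose, with a range of marker means from 8.31 to 9.33 log2 at 120 ppm and from 7.40 to 8.02 in air, and 2 of 5 rose after quantile normalization. Over all genes 68.9% were called in that comparison. Of 6 endothelial markers 3 rose and 2 fell, and Pecam1, the defining one, rose by 1.17 ± 0.169. The ciliated list (3 of 6 higher, 2 lower) and the alveolar type 1 list (3 of 5 higher, 2 lower) also moved both ways. Of 4 measured smooth muscle markers 3 fell and 1 rose, and of 3 measured red blood cell markers 2 fell. Of 6 club cell markers 1 rose. At 120 ppm the changes of Scgb1a1 and Sftpc did not pass, and their values were 13.67 to 13.93 log2 over all arrays. Scgb1a1 was called higher at 5 ppm (0.15, adjusted p = 0.012) and 10 ppm (0.12, adjusted p = 0.0469), and at neither after quantile normalization. Ager of alveolar type 1 cells was lower at 5 ppm (-0.18, adjusted p = 0.0047) and 120 ppm (-0.15, adjusted p = 0.0201). The part of these cell types in the changes of the 9 genes was not tested.

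The position of an array on the axis described above was entered as a covariate in the same model, with a second covariate in the interquartile range of its values. Air did not overlap the groups from 5 ppm up on either, so these fits extrapolate. With the axis, Fmo1 remained called at 10, 20, 40 and 120 ppm, with changes of 0.62, 0.65, 0.79 and 0.62, and was not called at 5 ppm (0.33, adjusted p = 0.512). Ces1g remained called at the same 4 concentrations, with 1.56, 2.32, 2.07 and 2.46 log2, and was not called at 5 ppm (1.32, adjusted p = 0.296). Fmo2 was called at none of the 5 with the axis, and its change was 0.25 at 120 ppm (adjusted p = 0.532). With the interquartile range Ces1g was called at all 5 concentrations from 5 ppm up, from 1.65 at 5 ppm to 2.77 at 120 ppm. At 5 ppm it was the only member called with this covariate, beside 34.1% of all genes, so Fmo1 was not called there. Fmo2 was called with it only at 120 ppm (0.88, adjusted p = 0.047). Ces1f was called at 10, 20 and 40 ppm with the axis and at none of the 5 with the interquartile range. Ces1d was called at 20 and 40 ppm with the axis and at 10, 20, 40 and 120 ppm with the interquartile range. Neither Ces2e nor Ces2g was called at any concentration with either covariate. With the axis 13.1% of all genes were called at 5 ppm, 24.6% at 10, 31.8% at 20, 31.3% at 40 and 25% at 120 ppm. With the interquartile range the shares at 5, 10, 20, 40 and 120 ppm were 34.1%, 28.8%, 28.2%, 28.3% and 29.5%.

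**Figure D5:**
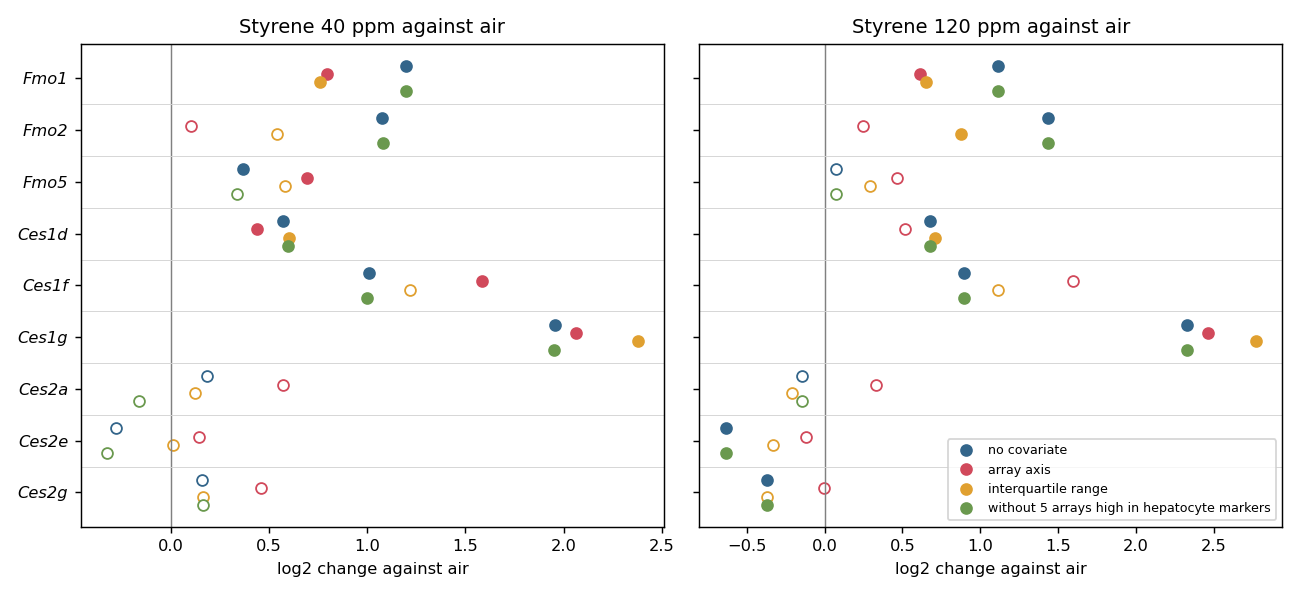
Log2 change of each gene against air (horizontal axis) at 40 ppm (left) and 120 ppm (right) under 4 settings: no covariate, the array axis, the interquartile range, and without the 5 arrays high in hepatocyte markers. Filled points are called and open points not called at an adjusted p under 0.05. Ces1g lies between 1.95 and 2.38 log2 at 40 ppm and is filled throughout, and Fmo2 stands at 0.10 with the axis there.

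Patterns of other genes were compared with those of the members over all 35 arrays, which share exposure and array-wide differences, so the correlations are descriptions. By log2 value Fmo1 was most like Mfsd1 (r = 0.978) and Heatr5b (0.977), Fmo2 like Abca8a (0.965) and Eps15 (0.952), and Ces1d like Ddx24 (0.946) and Hsd17b4 (0.942). Ces1g was most like Nqo1 (0.886), a quinone reductase, and Rrn3 (0.865), and Ces1f like Acsm1 (0.822) and Trf (0.800). Fmo5 had r = 0.871 with Adsl, Ces2a 0.920 with Cyp2d26, Ces2e 0.808 with Aadat and Ces2g 0.732 with Get1. After group means were subtracted, Fmo2 was still like Abca8a (0.810), Fmo5 like Adsl (0.771) and Ces2e like Aadat (0.694), whereas the nearest genes of Ces1g were Fam160a1 (0.818) and Wdr59 (0.713).

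Among the members themselves, the neighbours Fmo1 and Fmo2 had r = 0.82 over the 35 values and 0.33 after group means were subtracted. Fmo1 and Ces1d had 0.89 and 0.62, and Ces1f and Ces1g 0.66 and 0.58. Within groups Ces2e and Ces2g had 0.65, Fmo5 and Ces2g 0.54, and Fmo5 and Ces2e 0.49, so mice high in 1 of these tended to be high in the others. Ces2a and Ces2g had 0.05 within groups.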

How the data were processed

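Lung RNA of 35 mice was measured on Affymetrix 3' arrays, 1 array a mouse. The deposited values are log2 probe set summaries that the authors made with RMA and Partek, per the submitters' processing notes, with versions not given in the sources used here. The table held 45037 probe sets, of which 28898 carried exactly 1 gene symbol in the platform annotation, 551 several and 15588 none, and 28689 matched the reference gene table. Each of 17097 genes was represented by its brightest such probe set by the mean over all arrays.

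Group means were modelled for every gene by lmFit and eBayes (limma 3.58.1, R 4.3.3), and the Benjamini-Hochberg adjustment ran over all 17097 genes in each comparison. The comparisons set every styrene group against air, 120 against 40 ppm and 5 against 10 ppm. Trends used log2(ppm + 1) over all mice and log2(ppm) over 5 to 120 ppm, and a moderated F test covered any difference. Errors are SE of the fit, intervals are 95%, and tests are two-sided. A change was called at an adjusted p under 0.05. The fits were tested on simulated data.

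The 9 genes, the gene lists and the markers were chosen with earlier results of these data known. Named outside the 9 were up to 4 called genes of each list by smallest adjusted p at 120 ppm, Fmo4, Ces1e, a defining marker for each of 6 cell types, and the 2 genes most like each member by r. Alternatives covered probe set choice, normalization, a filter on dim genes, covariates, variance models, the air group and leaving out each mouse. The fits that use liver and fat cell markers were chosen after seeing the data. No 2 arrays were identical. Arrays have no read depth, and their number limits the precision. The mouse numbers were checked as pairs and used as a block only in an alternative.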

Additional observations from a re-analysis of the deposited data

Results flagged for a closer look

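The 9 genes in 7 groups gave 63 sets of 5 mice. In 7 of them 1 mouse stood apart from the other 4 by more than Dixon's 95% criterion for the gap over the range (0.71). The criterion is set to flag about 1 in 20 independent sets. These sets share the same mice, so their count was not compared with that rate. Fmo2 had 9.87 log2 in air mouse 5, above the other air mice. It had 9.59 in 20 ppm mouse 3, below the others at 20 ppm, on 1 of the 5 arrays high in liver cell markers. Fmo5 had 6.16 in 10 ppm mouse 2, below the others. Ces1g had 8.68 in 20 ppm mouse 3, above the others, on 1 of the 5 arrays high in liver cell markers. Ces2a had 3.69 in air mouse 3, below the others, and 5.43 in 40 ppm mouse 1, on the array with the highest liver cell marker mean. Ces2g had 5.91 in 1 ppm mouse 2, below the others. The cause of these values was not tested.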

How the results depend on the processing

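Comparisons without a named pair are against air, and values are log2 changes or slopes. Across all alternatives 2247 values of the members kept their direction and their side of the threshold, 52 gained and 102 lost the call, and 112 turned in sign. Of the counts of members called 310 stayed within 1.5 times and 43 did not. Deviations of mice with the same number had r from -0.378 to 0.441 (mean 0.049, 46 of 105 pairs over 0.1), and those with other numbers a mean of -0.0115 (113 of 420 over 0.1). The mean was thus higher for the same number. The mice were taken to share only a number because not every pair was over 0.1. That rule could hardly be met, so it cannot decide whether the numbers pair the mice. The block added Ces1g in the trend from 5 to 120 ppm (adjusted p = 0.0306) and moved no other member count by over 1.5 times. The fits with 5 mice a group limit what can be called, and no array carries a depth. The causes of the following changes were not tested. With probe sets of a gene averaged the sign turned, to -0.044 for Fmo2 and -0.046 for Fmo5 (1 ppm). With the second brightest probe set the sign turned, to -0.029 for Fmo2 and -0.11 for Fmo5 (1 ppm). After quantile normalization the sign turned, to 0.00043 for Ces1d (1 ppm), -0.24 for Fmo5 (10 ppm) and -0.037 for Fmo5, 0.049 for Ces2a and -0.17 for Ces2g (20 ppm). The remaining turned values included -0.071 for Ces2g (40 ppm), -0.19 for Fmo5 (120 ppm) and -0.025 for Ces1f (5 ppm against 10 ppm). It also turned, to -0.0068 for Fmo5 and -0.051 for Ces2g (the trend over all concentrations). After median centring the sign turned, to 0.013 for Ces1d (1 ppm), -0.058 for Fmo5 (10 ppm) and -0.022 for Ces1f (5 ppm against 10 ppm). Other values that turned were -0.0094 for Ces2g (the trend over all concentrations). With dim genes left out the members called were 0 for 1 ppm (1.72% of all genes then tested). With a covariate for the array axis the members called were 0 for 5 ppm (13.1% of all genes) and 5 ppm against 10 ppm (0.895%). They were 3 for 10 ppm (24.6%), 2 for 120 ppm (25%) and 5 for the F test. With this setting the sign turned, to -0.018 for Fmo5 (1 ppm), -0.13 for Fmo2, 0.19 for Fmo5, 0.48 for Ces2a, 0.41 for Ces2e and 0.018 for Ces2g (5 ppm) and 0.30 for Ces2a (10 ppm). Other values that turned were -0.0093 for Fmo2, 0.31 for Ces2a and 0.15 for Ces2e (20 ppm), 0.14 for Ces2e (40 ppm) and 0.33 for Ces2a (120 ppm). The remaining turned values included 0.013 for Ces1f (120 ppm against 40 ppm), -0.14 for Fmo2, 0.17 for Ces2a and 0.040 for Ces2g (5 ppm against 10 ppm) and 0.012 for Ces2a (the trend over all concentrations). It also turned, to 0.073 for Fmo2 and -0.010 for Ces2g (the trend from 5 to 120 ppm). With the interquartile range as a covariate the members called were 0 for 1 ppm (0.456% of all genes) and 5 ppm against 10 ppm (19.2%). They were 1 for 5 ppm (34.1%), 3 for 10 ppm (28.8%), 20 ppm (28.2%) and 40 ppm (28.3%) and 4 for 120 ppm (29.5%). With this setting the sign turned, to 0.0025 for Fmo1 and -0.11 for Fmo5 (1 ppm), 0.023 for Ces2e (5 ppm) and 0.039 for Ces2e (20 ppm). The remaining turned values included 0.011 for Ces2e (40 ppm), 0.046 for Ces2a (the trend over all concentrations) and 0.011 for Fmo2 (the trend from 5 to 120 ppm). Without moderation the members called were 0 for 1 ppm (2.26% of all genes). With array weights the members called were 0 for 1 ppm (0.445% of all genes) and 2 for 5 ppm against 10 ppm (36.4%). In the same fit the sign turned, to -0.11 for Fmo5 and -0.0046 for Ces1f (1 ppm), -0.073 for Fmo5 (10 ppm) and -0.11 for Ces2g (20 ppm). The remaining turned values included -0.0034 for Ces1f (5 ppm against 10 ppm) and 0.0025 for Ces2e (the trend from 5 to 120 ppm). With hepatocyte markers as a covariate the members called were 2 for 5 ppm against 10 ppm (28.3% of all genes) and 1 for the trend from 5 to 120 ppm. In that fit the sign turned, to -0.012 for Fmo5 (1 ppm), 0.051 for Ces2a (10 ppm) and 0.11 for Ces2a (120 ppm). Other values that turned were 0.0070 for Ces1f (120 ppm against 40 ppm) and -0.0044 for Ces1f (5 ppm against 10 ppm). Without the arrays high in hepatocyte markers the members called were 2 for the trend from 5 to 120 ppm. With this setting the sign turned, to -0.069 for Fmo5, 0.0059 for Ces1d and -0.31 for Ces1f (1 ppm), -0.038 for Ces2g (20 ppm) and -0.16 for Ces2a (40 ppm). Further values of opposite sign were 0.013 for Ces2a (120 ppm against 40 ppm) and -0.0074 for Ces2g (the trend over all concentrations). With only the 2 groups compared in the fit the members called were 0 for 1 ppm and 2 for 5 ppm against 10 ppm. At 1.5-fold or more the members called were 4 for 5 ppm and 0 for 5 ppm against 10 ppm. With 1 ppm in place of air the sign turned, to -0.72 for Ces2a (40 ppm). With adipocyte markers as a covariate the members called were 0 for 5 ppm against 10 ppm (21.5% of all genes). There the sign turned, to 0.064 for Ces2a (5 ppm against 10 ppm). With concentration on a linear scale the members called were 0 for the trend over all concentrations. Under it the sign turned, to -0.00068 for Ces2g (the trend over all concentrations) and 0.0016 for Fmo2 and -0.00034 for Ces2g (the trend from 5 to 120 ppm). With the mouse number as a replicate block the members called were 1 for the trend from 5 to 120 ppm. Over the rank of the concentration the members called were 3 for the trend from 5 to 120 ppm. Leaving out 1 mouse at a time gave 0 to 2 members called for 1 ppm, 0 to 2 members called for 5 ppm against 10 ppm and 0 to 3 members called for the trend from 5 to 120 ppm. The sign also turned in Fmo2 (1 ppm, -0.019 to 0.22), Fmo5 (1 ppm, -0.12 to 0.12), Ces1d (1 ppm, -0.13 to 0.069), Ces1f (1 ppm, -0.13 to 0.54) and Fmo5 (10 ppm, -0.10 to 0.13). The same held for Ces2a (20 ppm, -0.15 to 0.016), Ces2g (20 ppm, -0.11 to 0.16), Ces2a (40 ppm, -0.16 to 0.30), Ces2g (40 ppm, -0.014 to 0.26) and Fmo5 (120 ppm, -0.049 to 0.19). The same held for Ces1f (120 ppm against 40 ppm, -0.29 to 0.0059), Ces2a (120 ppm against 40 ppm, -0.45 to 0.013), Ces1f (5 ppm against 10 ppm, -0.14 to 0.14), Ces2g (the trend over all concentrations, -0.0092 to 0.014) and Fmo2 (the trend from 5 to 120 ppm, -0.042 to 0.018).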
